A study of Mus musculus with 4 samples.

Results

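Sites of open chromatin at the ends of long non-coding RNA (lncRNA) genes are described here in mouse pachytene spermatocytes with the Znhit1 gene knocked out (KO) and in control spermatocytes (CTRL). A site is a peak interval on chromosomes 1 to 19 that lies within 1 kb of an annotated end of a lncRNA gene and not within 1 kb of any end of a protein-coding gene. By this rule 778 of the 20845 intervals of the KO list and 555 of the 15241 intervals of the CTRL list were lncRNA gene-end sites, which is 3.73% for KO and 3.64% for CTRL. A site with 1 bp or more in common with the other list's intervals was called shared, and any other site was found alone. The tissue label is testis, the genotype labels are Znhit1_KO and CTRL, each with 2 libraries, and the titles carry the tag P35, which the labels do not explain. Neither the deleted allele, nor what drives the deletion, nor the strain is given by the labels. The assay was ATAC-seq, where Tn5 transposase inserts sequencing adapters into open chromatin. One peak list per genotype was analysed, so no difference below has a replicate check or a p-value. The labels state more than 30000000 reads for each library, but not how many of them a list rests on. Ranges in parentheses after percentages are 95% intervals by Wilson's method, and they hold counting error alone; neighbouring sites are not independent.

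Long non-coding RNAs are mostly made by RNA polymerase II, and are often spliced and polyadenylated without coding for a protein. Testis expresses more of them than most tissues, and meiotic spermatocytes and early spermatids are a main source. ZNHIT1 is a subunit of the SRCAP complex, which exchanges H2A for the histone variant H2A.Z, a variant typically found in the nucleosomes that flank transcription start sites. The comparison asks how accessible sites differ when ZNHIT1 is missing. All 6 pachytene spermatocyte markers looked up, among them Sycp1, Hormad1 and Mybl1, had a peak at a gene end in both lists. None of 5 spermatid, 4 Sertoli cell, 3 Leydig cell and 2 leukocyte markers had one in either list, and of 4 spermatogonial markers Dmrt1 had one in the CTRL list.

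The following promoter windows show the DNA under the widest sites of each class that overlapped a promoter window of their own lncRNA gene. Each runs 5′ to 3′ on the gene's strand from 250 bases before to 50 bases after the annotated start, from RefSeq (GRCm38.p6). Capitals mark matches, on either strand, to the short motifs counted further below. The first 2 lay under sites shared by both genotypes.
Rab10os, + strand, chr12:3235541-3235840: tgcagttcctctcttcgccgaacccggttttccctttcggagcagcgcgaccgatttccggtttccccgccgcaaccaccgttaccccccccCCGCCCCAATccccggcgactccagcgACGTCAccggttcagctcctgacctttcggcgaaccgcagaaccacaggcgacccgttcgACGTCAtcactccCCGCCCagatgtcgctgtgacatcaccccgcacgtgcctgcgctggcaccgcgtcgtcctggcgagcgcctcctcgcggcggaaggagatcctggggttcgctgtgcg
Gm10910, + strand, chr9:31280679-31280978: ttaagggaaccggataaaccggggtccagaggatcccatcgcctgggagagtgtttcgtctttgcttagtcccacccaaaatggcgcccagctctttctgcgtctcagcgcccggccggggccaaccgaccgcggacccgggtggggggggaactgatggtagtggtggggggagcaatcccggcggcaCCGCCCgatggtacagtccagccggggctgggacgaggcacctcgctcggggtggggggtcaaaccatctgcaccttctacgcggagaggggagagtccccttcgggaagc
The next 2 lay at sites found in the KO list alone.
Gm35239, + strand, chr12:52602703-52603002: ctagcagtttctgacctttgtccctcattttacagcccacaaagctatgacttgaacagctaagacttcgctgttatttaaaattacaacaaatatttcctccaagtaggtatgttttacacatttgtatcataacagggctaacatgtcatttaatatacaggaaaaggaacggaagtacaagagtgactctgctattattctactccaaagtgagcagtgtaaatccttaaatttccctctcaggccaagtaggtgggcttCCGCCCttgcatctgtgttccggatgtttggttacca
Gm40090, - strand, chr3:88607348-88607647: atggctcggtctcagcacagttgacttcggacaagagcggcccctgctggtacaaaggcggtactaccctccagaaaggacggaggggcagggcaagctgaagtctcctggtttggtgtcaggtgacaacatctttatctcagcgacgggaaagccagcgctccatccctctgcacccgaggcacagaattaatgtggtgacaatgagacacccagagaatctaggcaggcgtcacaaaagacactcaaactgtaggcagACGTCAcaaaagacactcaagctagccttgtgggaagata
The last 2 lay at sites found in the CTRL list alone.
Gm31392, - strand, chr14:24073718-24074017: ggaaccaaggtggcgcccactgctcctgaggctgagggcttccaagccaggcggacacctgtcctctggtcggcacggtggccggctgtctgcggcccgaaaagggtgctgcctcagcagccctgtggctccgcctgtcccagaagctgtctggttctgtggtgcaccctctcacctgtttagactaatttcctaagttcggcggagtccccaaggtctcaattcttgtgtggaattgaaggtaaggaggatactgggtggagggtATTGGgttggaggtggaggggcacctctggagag
4930520O04Rik, + strand, chr9:114368074-114368373: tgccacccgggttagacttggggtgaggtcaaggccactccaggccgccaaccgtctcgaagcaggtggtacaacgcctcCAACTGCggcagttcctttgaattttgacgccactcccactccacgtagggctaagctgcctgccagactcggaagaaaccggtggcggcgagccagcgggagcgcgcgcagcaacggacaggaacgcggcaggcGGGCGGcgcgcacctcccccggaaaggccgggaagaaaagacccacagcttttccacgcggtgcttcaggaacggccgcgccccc
GC content was 67.3% for Rab10os and 66.0% for Gm10910. It was 40% for Gm35239 and 53.7% for Gm40090, and in the CTRL-only pair 60.3% for Gm31392 and 66.0% for 4930520O04Rik. The site covered all 300 bases of the Rab10os, Gm10910 and 4930520O04Rik windows, 284 bases of the Gm40090 window, and only 46 and 58 bases of the Gm35239 and Gm31392 windows.

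Most lncRNA gene-end sites stood in 1 genotype's list alone, in KO and in CTRL. Of the 778 KO sites, 218 overlapped a CTRL interval and 560 (72.0%, 68.7 to 75) did not, beside 67.8% of all KO intervals. Of the 555 CTRL sites, 216 overlapped a KO interval and 339 (61.1%, 57.0 to 65.0) did not, beside 55.8% of all CTRL intervals. The lncRNA sites thus lay near the background of their list, which is a mixture of very different places. At protein-coding gene ends 31.2% (30.2 to 32.3) of 7665 KO intervals and 19.2% (18.3 to 20.2) of 6557 CTRL intervals stood alone. At no gene end of either kind, 90.1% (89.6 to 90.6) of 12402 KO and 84.9% (84.1 to 85.7) of 8129 CTRL intervals did. The percentage at lncRNA ends lay between those 2 in both lists under the main setting and each of the 10 alternatives that can change it.

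**Figure D1:**
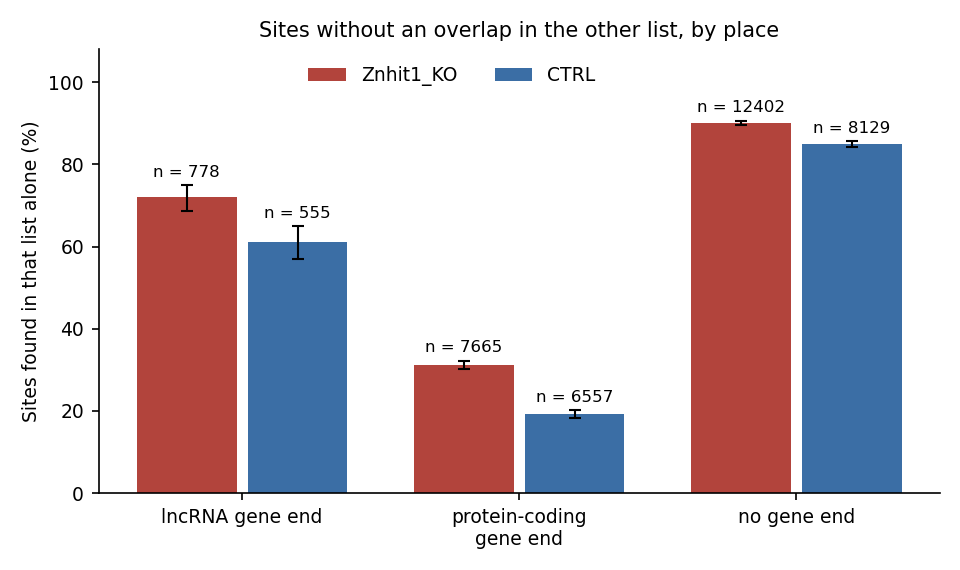
Percentage of intervals (vertical axis) with no overlap in the other list, at lncRNA gene ends, at protein-coding gene ends and at neither, for the Znhit1_KO list (red) and the CTRL list (blue). Bars carry Wilson 95% intervals and n is the number of intervals; the lncRNA bars, at 72.0% for KO and 61.1% for CTRL, stand between the coding-end and no-end bars.

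The KO list held more lncRNA sites than the CTRL list, as it held more intervals altogether. When the 15241 widest intervals of each list were compared, 558 KO and 555 CTRL intervals were lncRNA sites, of which 62.7% of KO and 62.3% of CTRL sites stood alone. At equal list length the 2 genotypes thus gave nearly equal counts. The lists differed most in narrow sites. Under 300 bp there were 322 KO sites and 140 CTRL sites, and at 600 bp or more there were 164 KO and 143 CTRL sites. This was not particular to lncRNA ends. Under 300 bp there were also 929 KO and 580 CTRL intervals at coding ends, and 6869 KO and 3318 CTRL intervals at no gene end. The median width over the whole list was 351 bp in KO and 427 bp in CTRL, beside 344.5 and 416 bp for lncRNA sites. On 18 of the 19 chromosomes the KO list had more lncRNA sites. Chromosome 18 was the exception, with 16 KO and 20 CTRL sites. Over all 19 chromosomes, sites numbered from 16 to 66 per chromosome in the KO list and from 17 to 43 in the CTRL list.

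Shared sites were wide and sites in 1 list alone were narrow, at lncRNA ends as elsewhere. The median width of shared sites was 638.5 bp in KO (quartiles 449.5 and 853.5) and 598 bp in CTRL (422.75 and 883.5). Sites found alone had a median of 290.5 bp in KO (228.75 and 408) and 350 bp in CTRL (264 and 468). The gap to protein-coding ends was also present within classes of width. Among sites of 600 bp or more, 26.2% of KO and 25.2% of CTRL lncRNA sites stood alone, against 12.5% of KO and 6.46% of CTRL intervals at coding ends and 39.7% of KO and 46.9% of CTRL intervals at no gene end. Among sites under 300 bp 92.9% of KO and 90.0% of CTRL sites stood alone at lncRNA ends, 77.3% of KO and 57.2% of CTRL at coding ends, and 96.5% of KO and 93.1% of CTRL at no end.

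**Figure D2:**
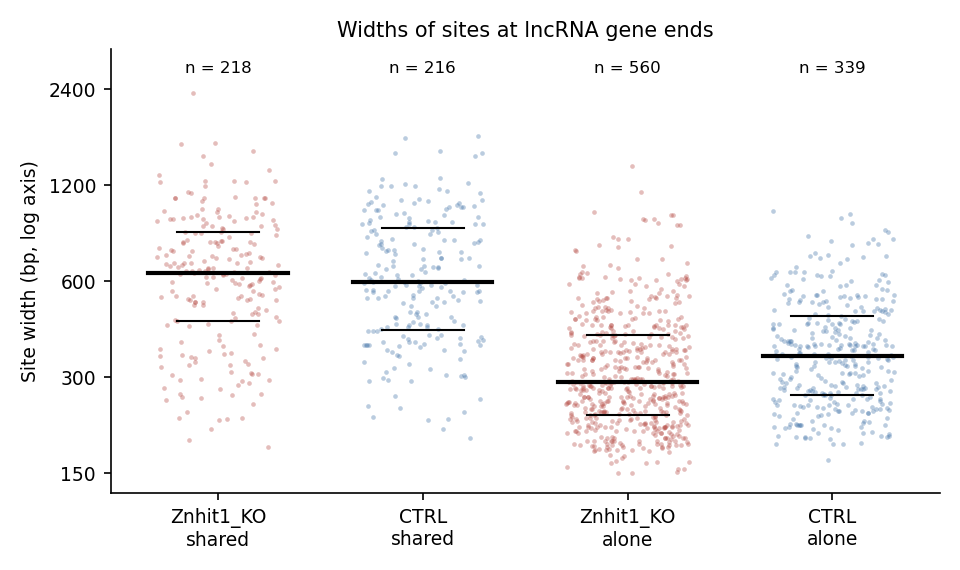
Width of each lncRNA gene-end site (vertical axis, bp, log axis) in the Znhit1_KO list (red) and the CTRL list (blue), for shared sites and for sites found in that list alone. Points are sites spread sideways, thick lines are medians and thin lines quartiles; the medians are 638.5 bp in KO and 598 bp in CTRL for shared sites, and 290.5 bp in KO and 350 bp in CTRL for sites found alone.

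Strand, taken from RefSeq promoter windows, told the 5′ end of a lncRNA gene, where transcription starts, from its 3′ end. It was known for 9291 of 12408 autosomal lncRNA genes, and 629 of 778 KO sites and 445 of 555 CTRL sites could be placed. Of these, 473 KO sites (75.2%, 71.7 to 78.4) and 350 CTRL sites (78.7%, 74.6 to 82.2) lay at a 5′ end, and the others lay at a 3′ end and at no 5′ end. Shared sites lay at a 5′ end in 93.3% (88.8 to 96.0) of 193 KO and 92.7% (88.1 to 95.6) of 192 CTRL cases. Sites found alone did so in 67.2% (62.7 to 71.4) of 436 KO and 68.0% (62.0 to 73.4) of 253 CTRL cases. Read the other way, 38.1% (33.8 to 42.5) of KO and 50.9% (45.6 to 56.1) of CTRL sites at 5′ ends were shared. At 3′ ends 13 of 156 KO sites (8.33%, 4.93 to 13.7) and 14 of 95 CTRL sites (14.7%, 8.99 to 23.2) were. Shared sites had median widths of 651.5 bp in KO and 616 bp in CTRL at 5′ ends, and 386 and 541 bp at 3′ ends. Sites found alone had 302 bp in KO and 363.5 bp in CTRL at 5′ ends, and 277 and 309 bp at 3′ ends. The part of width in the difference between ends was not tested.

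Sharing also differed with the distance of a site from the annotated end. Of the sites that reached or covered a lncRNA end, 143 of 264 in KO (54.2%, 48.1 to 60.1) and 133 of 227 in CTRL (58.6%, 52.1 to 64.8) were shared. From 1 to 500 bp away the shared percentage was 17.1% of 280 KO and 26.9% of 186 CTRL sites, and beyond 500 and up to 1000 bp it was 11.5% of 234 KO and 23.2% of 142 CTRL sites. Width differed as well, with medians of 560 bp in KO and 543 bp in CTRL for sites that reached or covered an end. The medians were 281 bp in KO and 365 bp in CTRL from 1 to 500 bp away, and 291 and 351.5 bp beyond that. The part of width in the difference by distance was not tested. Intervals more than 10000 bp from any lncRNA end, and not at a coding end, were shared in 9.97% of 10286 KO and 15.2% of 6729 CTRL cases. In the outermost 200 bp of the 1 kb window, 10 of 97 KO sites and 9 of 46 CTRL sites were shared. In the 200 bp just beyond it, 2 of 70 KO and 6 of 44 CTRL intervals were. The rule has another edge, at 1 kb from a coding end. Of sites up to 200 bp outside it, 5 of 17 in KO and 6 of 16 in CTRL were shared. Of intervals up to 200 bp inside it, which the rule left out, 11 of 26 KO and 12 of 17 CTRL intervals were.

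**Figure D3:**
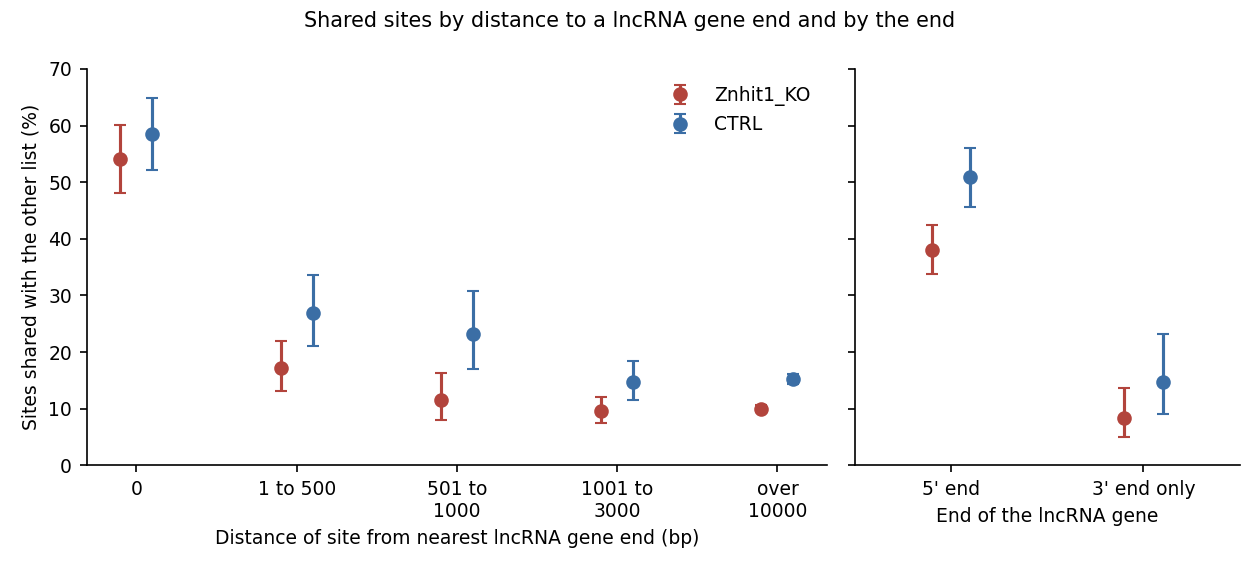
Percentage of sites shared with the other list (vertical axis), by distance in bp to the nearest lncRNA gene end with coding ends excluded (left) and by whether a lncRNA gene-end site lies at a 5′ end or at a 3′ end only (right), for Znhit1_KO (red) and CTRL (blue). Bars are Wilson 95% intervals; the percentage is highest for sites that reach the end, at 54.2% in KO and 58.6% in CTRL, and for 5′ ends, at 38.1% in KO and 50.9% in CTRL.

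Relative to the nearest annotated start of their own gene, shared sites were centred close to it. The median signed distance of the site centre was -1.5 bp in KO (quartiles -160 and 190, 193 sites) and 22 bp in CTRL (-179.125 and 216.125, 192 sites), where a negative value lies upstream. For sites found alone it was 382.5 bp in KO (-141 and 2887, 437 sites) and 291.5 bp in CTRL (-125.75 and 2724, 255 sites). Within 500 bp of a start lay 77.2% of shared and 36.8% of unshared KO sites, and 144 of 192 shared (75%) and 42.7% of unshared CTRL sites. Sites that overlapped a lncRNA promoter window and no coding one were shared in 105 of 216 KO cases (48.6%, 42 to 55.2) and 105 of 190 CTRL cases (55.3%, 48.2 to 62.2). Intervals at coding ends that overlapped a coding promoter window were shared in 77.9% (76.7 to 79.0) of 5261 KO and 89.3% (88.3 to 90.1) of 4524 CTRL cases.

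Some lncRNA sites also touched a start of a protein-coding gene that lies away from the gene's annotated ends. A coding promoter window was overlapped by 48 of 218 shared and 29 of 560 unshared KO sites, and by 48 of 216 shared and 15 of 339 unshared CTRL sites. The widest site found in KO alone was one of these. It lay at an end of A630026N12Rik on chromosome 2 (126674696 to 126676074, 1379 bp), inside Gabpb1, a subunit of the ETS-family factor GABP, and overlapped 2 promoter windows of that gene. Without all such sites, 75.7% of KO and 65.9% of CTRL lncRNA sites stood alone. Inside a protein-coding gene lay 44.0% of shared and 36.4% of unshared KO sites, and 43.1% of shared and 35.4% of unshared CTRL sites. The median distance to the nearest coding end was 8979.5 bp for shared and 19463 bp for unshared KO sites, and 8885.5 bp for shared and 18336 bp for unshared CTRL sites.

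Ranked by the mean of its KO and CTRL widths, the widest shared site lay at the start of Rab10os, an opposite-strand transcript beside the GTPase gene Rab10. It was 2336 bp wide in KO (chromosome 12, 3235105 to 3237440) and 1196 bp in CTRL (3234918 to 3236113). Gm10910 on chromosome 9 followed with 1484 bp in KO and 1707 bp in CTRL, and its site lay within 1 kb of both ends of the gene. On chromosome 14 the site of 2410022M11Rik was 1614 bp wide in KO and 1511 bp in CTRL. LOC115490388 on chromosome 6 had 1622 bp in KO and 1477 bp in CTRL. The 8 widest also held 2310068J16Rik (1290 bp in KO, 1265 bp in CTRL), Gm11767 (1237 bp in KO, 1190 bp in CTRL) and B330016D10Rik (1343 bp in KO, 1052 bp in CTRL). Gm36445 on chromosome 13 had 801 bp in KO and 1688 bp in CTRL. Of these 8, Rab10os and Gm36445 had the most unequal widths, with log2 ratios (KO over CTRL) of 0.97 and -1.08.

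Neither genotype had the wider interval at most shared sites by a large margin. Over 195 lncRNA sites where 1 interval met 1 interval, the log2 width ratio, KO over CTRL, had a median of 0.04 (quartiles -0.39 and 0.40), beside 0.03 (-0.29 and 0.38) over all 6216 such pairs. The KO interval was the wider at 103 and the CTRL interval at 92. By a factor of at least 2, it was KO at 11 and CTRL at 10. Over all 6216 pairs the KO interval was the wider at 3272 and the CTRL interval at 2925, and by a factor of at least 2 KO at 360 and CTRL at 234. The largest log2 ratio was 1.87, at 1700052K11Rik on chromosome 11, where the site had 1536 bp in KO and 419 bp in CTRL. The lowest was -1.79, at Gm41492 on chromosome 16, with 181 bp in KO and 627 bp in CTRL. These extremes rest on 1 interval in each list.

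**Figure D4:**
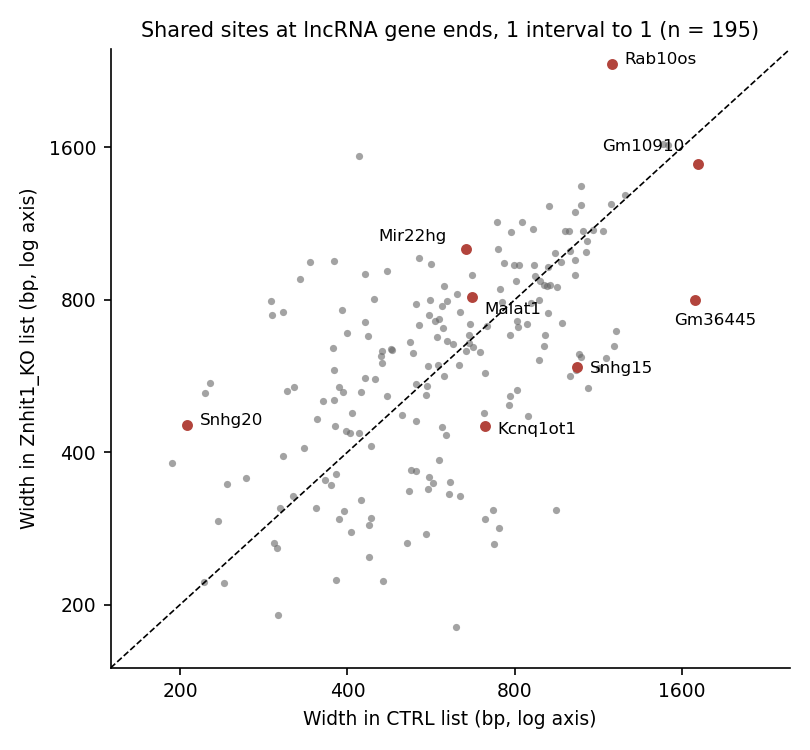
Width of each shared lncRNA gene-end site in the Znhit1_KO list (vertical axis, bp, log axis) against its width in the CTRL list (horizontal axis, bp, log axis), for 195 sites where 1 interval met 1 interval. The dashed line marks equal widths, red points are named sites, and 103 points lie above the line and 92 below it.

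Among sites found in KO alone, A630026N12Rik (1379 bp, above) was followed by a site at the 5′ ends of both 1700031P21Rik and Gm35239 (chromosome 12, 52602957 to 52604100, 1144 bp). Gm12925 lay inside Macf1, a cytoskeletal crosslinker gene (chromosome 4, 123664394 to 123665381, 988 bp). Gm40090 lay inside Arhgef2 (chromosome 3, 88607364 to 88608331, 968 bp). Gm29791 (966 bp, chromosome 7) and Gm17762 (943 bp, chromosome 2) lay outside coding genes, each at its 5′ end. Gm51697 (941 bp, chromosome 9) lay inside the phospholipase gene Plcd1, and a site at the 5′ ends of both Gm20324 and Tbrg3 (934 bp, chromosome 15) lay inside Tcf20. All but Gm12925 of the 8 reached or came within 145 bp of the lncRNA end, and Gm12925 lay 500 bp from it.

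Among sites found in CTRL alone, the widest lay at the 5′ end of Gm31392 (chromosome 14, 24072780 to 24073775, 996 bp). The 5′ end of 4930520O04Rik was next (chromosome 9, 114367899 to 114368873, 975 bp), its centre 62 bp from the annotated start, followed by Gm35920 (947 bp, chromosome 10). Neat1, the architectural RNA of nuclear paraspeckles, had a site over the end coordinate of the gene (chromosome 19, 5845113 to 5846027, 915 bp). The remaining 4 were 4930429H19Rik (870 bp, chromosome 7), Gm51485 (855 bp, at its 3′ end on chromosome 7), Gm36274 (833 bp, chromosome 5) and Gm46891 (815 bp, chromosome 4). The Gm46891 site lay inside Dcaf12, 1108 bp from the nearest coding end, and overlapped a promoter window of Dcaf12. None of the other 7 overlapped a coding promoter window or lay inside a coding gene.

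Seen by gene, 231 of the 12408 autosomal lncRNA genes had a site in both lists, 549 in the KO list alone, 314 in that of CTRL alone, and 11314 in no list. At 209 of the 231 the sites overlapped an interval of the other list, as did a site at 9 of the 549 and at 5 of the 314. Of the 549 genes, 18 had a CTRL interval that the rule left out because it lay within 1 kb of a coding end, and of the 314, 16 had such a KO interval. Curated genes were more often in both lists than predicted ones. Counting genes with at least 1 end away from coding ends, a site in either list was found at 382 of 3105 genes with a curated (NR) transcript (12.3%, 11.2 to 13.5) and at 708 of 9085 with predicted (XR) transcripts only (7.79%, 7.26 to 8.36). Of those with a site, 31.9% (27.5 to 36.8) and 15.3% (12.8 to 18.1) had one in both lists.

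RIKEN clone names of certain number series, such as that of 1700012D14Rik, mark transcripts first cloned from testis libraries. Of 849 such genes, 32 had a site in both lists, 41 in KO alone and 26 in CTRL alone, so that 11.7% (9.67 to 14.0) had any. Of 845 genes with other RIKEN names, 41 had one in both lists, 37 in KO alone and 25 in CTRL alone, or 12.2% (10.2 to 14.6), and the 2 intervals overlap. The widest shared testis-clone sites, chosen after their values were seen, were those of 1700028E10Rik (1092 bp in KO, 1063 bp in CTRL) and 1700012D14Rik (1095 bp in KO, 984 bp in CTRL). Of testis-clone sites in 1 list alone, the widest were those of 1700031P21Rik in KO and of 4930520O04Rik in CTRL, both given above, followed by 4933427D06Rik (811 bp, KO) and 4930429H19Rik (870 bp, CTRL). Genes named Gm or LOC, 10039 in number, had 134 in both lists (1.33%), 435 in KO alone (4.33%) and 247 in CTRL alone (2.46%). Over all 12190 lncRNA genes with an end away from coding ends, these shares were 1.89%, 4.49% and 2.57%. Any site was found at 8.94% of the 12190.

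Several lncRNA genes carried more than 1 site. The most, 2 sites in each list, were found at 5 genes: 1700048O20Rik, 2700012I20Rik, 4930456A14Rik, Gm27011 and Gm33862. At the 5′ end of 4930456A14Rik, inside Atxn2l, the 2 sites were 852 and 946 bp wide in KO and 916 and 764 bp in CTRL. At Gm33862 the start-side site had 345 bp in KO and 373 bp in CTRL, and the site beyond its 3′ end had 222 bp in KO and 221 bp in CTRL. At 1700048O20Rik a site of 255 bp near the 3′ end was found in CTRL alone.

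Host genes of small nucleolar RNAs (snoRNAs), whose introns yield the guides of ribosomal RNA modification, included several genes with a wide site in both lists. Of 18 hosts listed, 6 had a site in both lists, 3 in KO alone and 2 in CTRL alone. Of the 7 others, Snhg1, Snhg6, Gas5 and Zfas1 had an interval in at least 1 list that the rule left out because it lay near a coding end. Among all lncRNA genes, 1.86% had a site in both lists, 4.42% in KO alone and 2.53% in CTRL alone. The 18 were listed by name and are not all hosts. By position, a snoRNA lay inside 8 of the 231 genes with a site in both lists, Dancr among them. The same held for 8 of the 549 genes in KO alone and 5 of the 314 in CTRL alone. The site over the 5′ end of Snhg8 reached to within 1 kb of its 3′ end, with 1225 bp in KO (chromosome 3, 123507845 to 123509069) and 923 bp in CTRL (123508146 to 123509068). Snhg5 had 992 bp in KO and 1076 bp in CTRL, and Snhg16 had 854 bp in KO and 904 bp in CTRL. Among the other 3, widths differed more between the lists. Snhg15 had 589 bp in KO and 1037 bp in CTRL, Snhg9 had 687 bp in KO and 400 bp in CTRL, and Snhg20 had 452 bp in KO and 206 bp in CTRL. Snhg20 is listed by its name, and the annotation used here places the microRNA gene Mir6516 and no snoRNA inside it. The Snhg9 site also overlapped a promoter window of the ribosomal protein gene Rps2. In KO alone were Snhg12 (540 bp), Snhg11 (340 bp, at its 3′ end) and Snhg3 (244 bp), and in CTRL alone Snhg17 (278 bp) and Snhg7 (195 bp, at its 3′ end).

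On a list of named microRNA hosts, which is not complete, 12 matched the gene table. Of these 12, Mir22hg had a site in both lists, Dleu2 in KO alone, and 10 had none. Of all autosomal lncRNA genes, 8.82% had a site in either list. By position, a microRNA lay on either strand inside 6 of the 231 genes with a site in both lists. The same held for 6 of the 549 genes in KO alone and 2 of the 314 in CTRL alone, most of them not on that list. The Mir22hg site at its 5′ end had 1008 bp in KO (chromosome 11, 75460990 to 75461997) and 654 bp in CTRL (75461234 to 75461887). The Dleu2 site had 568 bp in KO, just before the 5′ end of the gene (chromosome 14, 61682384 to 61682951). Sites also lay directly over microRNA hairpins at 4 lncRNA ends, all in the KO list. None of the 4 was shared, but 72.0% of all 778 KO lncRNA sites were not shared either, and the CTRL list held only 555 sites. The 4 lay over Mir675 within H19 (673 bp), Mir199a-2 at the 5′ end of Dnm3os (341 bp), Mir8104 at Gm36284 (530 bp) and Mir7687 at 1700016A09Rik (414 bp). For 4 of these host genes a single mature microRNA each is shown, because its precursor lies in the marked gene. Each of the 4 genes holds further mature microRNAs that are not shown. The seed (bases 2 to 8) is in capitals, and the sequences are from RefSeq (GRCm38.p6).
mmu-miR-22-3p: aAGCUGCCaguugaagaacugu
mmu-miR-16-5p: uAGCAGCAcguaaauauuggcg
mmu-miR-675-5p: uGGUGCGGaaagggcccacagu
mmu-miR-199a-5p: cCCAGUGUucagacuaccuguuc
The first is hosted by Mir22hg, with a site in both lists, and the other three by Dleu2, H19 and Dnm3os, with a site in KO alone. No pair of them shares a seed.

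Imprinted lncRNAs are expressed from 1 parental allele in many tissues. Of 8 matched, 1 had a site in both lists, 1 in KO alone and 6 in neither, beside the same 8.82% with any site. Kcnq1ot1, the antisense silencer of the Kcnq1 domain, had the one in both lists, at its 5′ end inside Kcnq1. It was 451 bp wide in KO (chromosome 7, 143296411 to 143296861) and 706 bp in CTRL (143296234 to 143296939). H19 had one in KO alone (142576529 to 142577201), within the gene and within 1 kb of both its ends. Meg3, Rian, Mirg, Airn, Peg13 and Ipw had none.

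Among 21 other characterised lncRNAs, 4 had a site in both lists, 3 in KO alone, 2 in CTRL alone and 12 in neither. Over all autosomal lncRNA genes 1.86% had a site in both lists, 4.42% in KO alone and 2.53% in CTRL alone. Malat1, an abundant RNA of nuclear speckles, had 810 bp in KO (chromosome 19, 5803110 to 5803919) and 671 bp in CTRL (5803197 to 5803867), upstream of its annotated 5′ end. Dancr had 823 bp in KO and 629 bp in CTRL, and Crnde had 663 bp in KO and 604 bp in CTRL. Oip5os1, also called Cyrano, which directs decay of the microRNA miR-7, had 580 bp in KO and 378 bp in CTRL. In KO alone were Norad, which binds Pumilio proteins (703 and 212 bp, 2 sites), Pvt1, beside Myc (408 bp), and Dubr (344 bp). In CTRL alone were Neat1 (915 bp) and Epb41l4aos (388 bp). The Epb41l4aos site overlapped a KO interval within 1 kb of a coding end, so both lists hold an interval at this gene. Of 5 lncRNAs listed for testis, only 1700121C08Rik matched the gene table, and it had none.

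Ends of transfer RNA genes lay within 1 kb of 14 KO and 9 CTRL lncRNA sites. Of these, 8 in KO and 9 in CTRL were shared, beside 28.0% of all KO and 38.9% of all CTRL lncRNA sites. The 6 in KO alone included 3 in the same stretch of chromosome 13, at Gm40833 (163 bp), Gm46404 (773 bp) and Gm52036 (211 bp).

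Promoter windows with a site were rich in G and C. A gene can have more than 1 window and a site can overlap more than 1, so the windows counted are not independent. Over 163 lncRNA windows under a shared site the median GC content was 61.7% (quartiles 56.0 and 67.8). It was 56.3% (50.3 and 62.5) over 163 windows under a site found in KO alone, 53.7% (49.8 and 59.0) over 95 under one found in CTRL alone, and 47.3% (42.7 and 51.7) over 9358 windows away from coding ends with no site. The ratio of observed to expected CpG had medians of 0.791, 0.471, 0.364 and 0.214 for the shared, KO-alone, CTRL-alone and no-site windows. Protein-coding windows under a shared interval had a median GC content of 63.7% and a CpG ratio of 0.853. Of 510 lncRNA windows with at least 60% GC, 102 had a shared site, 53 one in KO alone and 19 one in CTRL alone (intervals 16.8 to 23.7%, 8.03 to 13.3% and 2.40 to 5.75%). Of 1355 windows under 40% GC, 1 had a shared site, 2 one in KO alone and 3 one in CTRL alone. The part of GC content in these counts was not tested.

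**Figure D5:**
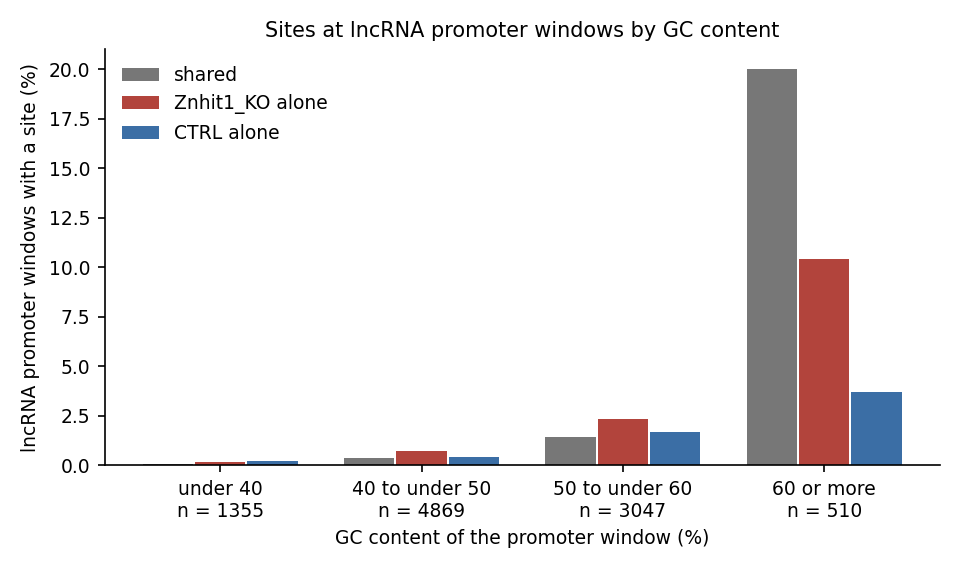
Percentage of lncRNA promoter windows (vertical axis) with a shared site (grey), a site in the Znhit1_KO list alone (red) or a site in the CTRL list alone (blue), by GC content of the window (horizontal axis, %), for windows away from protein-coding ends. In the 510 windows with at least 60% GC the bars stand for 102 windows (shared), 53 (KO alone) and 19 (CTRL alone), and in the other groups no bar exceeds 2.36%.

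Motif letters were counted on both strands of the same windows. The GC box GGGCGG was present in 68.7% of windows under a shared site, 39.9% under a KO-only site and 26.3% under a CTRL-only site, against 10.7% of all 9781 lncRNA windows away from coding ends and 47.0% of all 20085 coding windows. The ETS core CCGGAAG was found in 14.7% of shared, 6.75% of KO-only and 2.11% of CTRL-only windows, against 2.88% of these lncRNA and 11.9% of coding windows. For the cyclic AMP response element core TGACGT the shares were 15.3% of shared, 5.52% of KO-only and 10.5% of CTRL-only windows, against 5.12% of these lncRNA and 8.59% of coding windows. The CTCF core AGGGGGC, which is itself rich in G and C, was present in 27.6% of shared, 14.1% of KO-only and 12.6% of CTRL-only windows, against 5.19% of these lncRNA and 13.1% of coding windows, and the NRF1 core CATGCGC in 6.13% of shared, 4.91% of KO-only and 4.21% of CTRL-only windows, against 1.78% of these lncRNA and 4.84% of coding windows. The letters GCAGTTG, bound by MYB factors, were in 4.29% of shared, 2.45% of KO-only and 5.26% of CTRL-only windows, against 4.21% of these lncRNA and 3.85% of coding windows. The RFX half-site GTTGCCA was in 3 of 163 shared, 4 of 163 KO-only and 8 of 95 CTRL-only windows (8.42%), against 4.83% of these lncRNA and 4.21% of coding windows. CCAAT was in 36.8% of shared, 25.8% of KO-only and 37.9% of CTRL-only windows, against 36.2% of these lncRNA and 38.1% of coding windows, and TATAAA in 7.98% of shared, 12.9% of KO-only and 6.32% of CTRL-only windows, against 16.6% of these lncRNA and 12.7% of coding windows. A match describes letters in a window and not a bound site, and the windows compared differ in GC content.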

How the data were processed

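The authors deposited 1 peak list per library analysed, 1 for a Znhit1_KO and 1 for a CTRL library, each with chromosome, start and end and no height, score or summit. Groups came from the genotype label. Tools listed by the submitters' processing notes are MACS2 2.2.4, Picard 2.20.7, Bowtie2 2.3.4.3 and cutadapt 2.5, with build mm10. What each tool did, the peak threshold, any Tn5 shift and any pooling of replicates are not stated there, and 2 libraries were not analysed here. Lines with the same interval were counted once. Positions are 1-based.

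Genes, strand and sequences came from RefSeq tables of GRCm38.p6, which has the same main chromosomes as mm10. Overlaps, windows of 1 kb and Wilson intervals were computed with Python 3.11.15, pandas 2.3.3, numpy 2.4.6 and scipy 1.17.1, and figures with matplotlib 3.10.9. bedtools 2.31.1 gave the same 778 and 555 sites and the same 218 and 216 shared ones. On simulated intervals, all 1481 planted sites and all 502 overlaps of 1 bp were found, and none of 468 intervals just outside 1 kb was taken. The rule for named genes takes the 8 widest sites of each class (shared ones by the mean of both widths), members of 5 lists of lncRNAs with a site and the genes with most sites. The extremes of width ratio and the genes named for testis clones, transfer RNA ends, microRNA hairpins and chromosome X were chosen after their values were seen. Members and lists were chosen with earlier results of these data known. With 1 list for each genotype, nothing was tested. Another 11 settings were tried, 2 of them chosen after seeing the data.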

Additional observations from a re-analysis of the deposited data

How the results depend on the processing

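Under the main setting and the 10 alternatives that can change it, the percentage of sites found alone lay between those at coding ends and at no end. It was higher in the knockout than in the control list in the same settings, but at equal numbers of the widest intervals by only 62.7% against 62.3%. Shared sites are counted from the same overlaps, 218 of 778 knockout and 216 of 555 control sites under the main setting. The list with more sites therefore has the higher percentage alone, and this order is no separate result about genotype. No paired analysis was possible because 1 list per genotype was analysed and no test was run. Of 68 alternative values, 35 stayed within the counting interval or within 1.5 times the main count and 33 moved. Some of the 35 were fixed in advance and say nothing about stability. The 50% overlap and the 500 bp gap change only which sites are shared, so the site and gene counts could not move there. With equal numbers of the widest intervals the control list stayed whole, so its 555 sites could not change either. In each list of values that follows, the numbers are knockout sites, control sites, percent alone in the knockout, percent alone in the control, genes in both, genes in the knockout alone and genes in the control alone, as far as they moved. An lncRNA window of 3 kb gave 1408, 963, 80.3%, 71.3%, 356, 1056 and 601. Intervals listed at least 2 times gave 219, 195, 59.4%, 54.9%, 88, 140 and 106. Without Gm and LOC genes they were 217, 171, 55.8%, 43.9%, 96, 112 and 66. With intervals of at least 300 bp, knockout sites numbered 456, with 59.2% and 54.9% alone, and 276 genes in the knockout alone. With equal numbers of the widest intervals 62.7% of knockout sites stood alone and 356 genes were in the knockout alone, against 332 in the control alone. An overlap of 50% of both intervals gave 78.7% and 70.8% alone, and an lncRNA window of 500 bp 64.9% and 55.7%. Without sites over a coding promoter window, an alternative chosen after seeing the data, 75.7% and 65.9% stood alone. Counting intervals near coding ends at the same genes, also chosen afterwards, gave 265 genes in both, 531 and 298. A gap of up to 500 bp and a coding window of 3 kb moved none, and with the gap only the percentages could move. Without heights or read counts, weak and absent sites cannot be told apart.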

Other observations

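On the sex chromosomes, which the rule left out, 3 of 132 knockout intervals and 2 of 107 control intervals on X lay at a lncRNA end away from coding ends. On chromosomes 1 to 19 the shares were 3.73% in the knockout and 3.64% in the control list. Of the sites on X, all 3 in the knockout and 1 of 2 in the control lay at G530011O06Rik near the far end of X. Its shared site was 303 bp wide in the knockout (X, 169973764 to 169974066) and 376 bp in the control (169973764 to 169974139), and the sites in the knockout alone were 308 and 547 bp wide. The remaining control site, of 290 bp, lay at Gm30704. None of 27 knockout and 28 control intervals on Y lay at a lncRNA end.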
